A study of Mus musculus with 2 samples.

Results

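A set of 10 genes for macrophage-derived growth and angiogenic factors and their receptors was followed in mouse bone marrow-derived macrophages exposed to a bile acid: Igf1, Igf1r, Igfbp4, Vegfa, Vegfb, Pdgfa, Pdgfb, Pdgfc, Hbegf and Hgf. They were taken by symbol from the 15576 genes of the deposited expression table, and all 10 were found. Such macrophages are grown in culture from bone marrow progenitors. For the DCA library the cells had 100 µM deoxycholic acid (DCA), which gut bacteria make from a primary bile acid, for 24 h, and for the NC library they had none. The DCA library rests on a total of 56.6 M reads (M is 1e6) and the NC library on 59.2 M. The labels leave unclear whether RNA was taken at the end of the treatment or a day later, and name no vehicle, genotype, strain, age, sex or number of mice. With 1 library in each group, no difference below has a replicate check, and no statistical test was possible.

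Macrophages feed tissue repair through secreted growth factors. IGF-1 acts through the IGF-1 receptor on survival and growth, and IGF-binding proteins hold it in the fluid around cells. VEGF-A drives the growth of blood vessels through VEGF receptors and neuropilins. PDGF chains act on fibroblasts and mural cells, HB-EGF on the EGF receptor, and HGF on the MET receptor of epithelia.

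Igf1 was 18.2% lower in DCA, and Vegfa was 15.4% and Hgf 12.7% higher, while Igf1r, Igfbp4, Vegfb, Pdgfa and Pdgfb differed by less than their counting error. Ratios are DCA over NC in FPKM, the reads scaled to gene length in kilobases and to 1e6 reads in all. Each carries an exact Clopper-Pearson 95% interval on the reads rebuilt from the FPKM, which covers counting error only. Of the 10 genes, 8 had a mean FPKM of at least 1 over the 2 libraries and were set beside the 9656 genes that passed the same filter, called tested genes below although no statistical test was made. Among these 8, the interval lay above equality for 2 and below it for 1. Over the 9373 tested genes with rebuilt reads it lay above equality for 25.6% and below it for 20.0%, so the members' counts were no larger a share than the background of these libraries. None of the 8 reached 1.2-fold on the scale of FPKM + 1, a limit passed by 2.11% of tested genes on the higher and 0.715% on the lower side. Limits of 1.5-fold (0.342% higher, 0.155% lower) and 2-fold (0.155% higher, 0.0932% lower) were likewise reached by no member. The median difference in log2(FPKM + 1) was 0.0052 over the 8 members and 0.0067 over all tested genes, with 4 members above and 4 below 0. In bulk RNA, fewer cells of a type and less RNA per cell cannot be told apart.

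**Figure D1:**
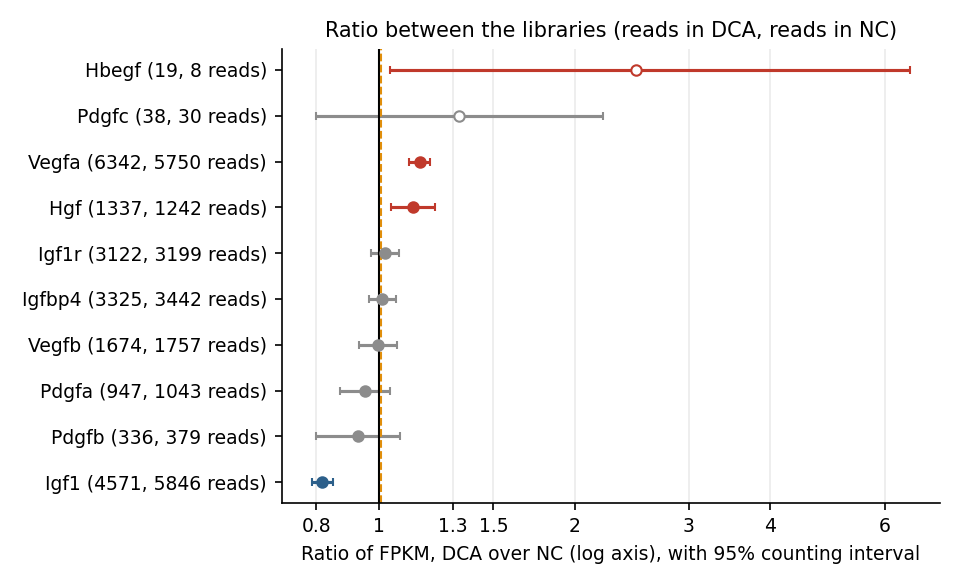
Ratio of FPKM in DCA over NC (log axis) for the 10 genes, with the rebuilt reads of each library beside the name. Bars are 95% counting intervals, open points are genes with a mean FPKM under 1, red and blue mark intervals above and below 1, and the dashed line is the median ratio of all tested genes. Igf1 lies at 0.818, Vegfa at 1.15 and Hgf at 1.13, and the interval of Hbegf runs from 1.04 to 6.56.

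Igf1, the ligand of the IGF system (ENSMUSG00000020053, GRCm38 chromosome 10, 87858265 to 87937042, plus strand), was at 5.14 FPKM in DCA against 6.28 in NC, counted from 4571 and 5846 reads. Its ratio was 0.818 (0.787 to 0.851), the lowest of the 10. Its difference in log2(FPKM + 1) was -0.25, and 0.88% of the tested genes lay as low or lower. Igf1r, its signalling receptor (ENSMUSG00000005533, chromosome 7, 67952827 to 68233668, plus strand), was at 2.74 FPKM in DCA against 2.68 in NC, for a ratio of 1.02 (0.972 to 1.07). Igfbp4, a binding protein that keeps IGF-1 from the receptor (ENSMUSG00000017493, chromosome 11, 99041244 to 99054392, plus strand), was at 8.28 FPKM in DCA against 8.19 in NC, for a ratio of 1.01 (0.964 to 1.06). The ligand therefore stood apart from its receptor and its binding protein in the same pair of libraries.

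Ratios taken within a library do not depend on how the libraries were scaled. Per kilobase, Igf1 stood at 0.613 of Igfbp4 in DCA and 0.757 in NC, which is 0.809 times as much in DCA, with an exact conditional 95% interval of 0.761 to 0.861. Against Igf1r it stood at 2.48 in DCA and 3.10 in NC, or 0.801 times (0.752 to 0.853). Against Vegfa it stood at 0.312 in DCA and 0.440 in NC, or 0.709 times (0.672 to 0.748), and Hgf stood at 0.403 of Igf1 in DCA and 0.293 in NC, or 1.38 times (1.26 to 1.502). Such ratios show that genes differed unequally between the libraries, not which of them moved. Each follows from the ratios between the libraries, so it gives no separate support. The pairs with Vegfa and Hgf set the lowest ratio of the tested members against the highest. Among 13 other IGF-axis genes in the table, 3 passed the filter and none had an interval off equality. They were Igf2r, which clears IGF-2, at 0.984 (0.963 to 1.004), the insulin receptor Insr at 1.02 (0.979 to 1.05), and the adaptor Irs2 at 0.966 (0.904 to 1.03). The interval of Igf2r lay below equality under both rescalings of the libraries. Below the filter, 1 gene had an interval above and 2 below equality, counts to which the shares over all tested genes do not extend. Igfbp6, a binding protein with a preference for IGF-2, was at 1.29 FPKM in DCA against 0.623 in NC, counted from 81 and 41 reads, for a ratio of 2.07 (1.40 to 3.09) and a difference in log2(FPKM + 1) of 0.50. Htra1, a secreted protease, had 29 and 61 reads, a ratio of 0.498 (0.308 to 0.786), and Igfals, for the acid-labile subunit of circulating IGF complexes, had 0 in DCA and 11 in NC. Igf2r, Irs2 and these 3 are named after their values were seen.

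Vegfa, the main angiogenic ligand (ENSMUSG00000023951, chromosome 17, 46016993 to 46032369, minus strand), was at 8.80 FPKM in DCA against 7.63 in NC. Its ratio was 1.15 (1.11 to 1.196) and its difference in log2(FPKM + 1) was 0.18, at percentile 95.2 of the tested genes. The annotated transcript length did not turn its FPKM into whole reads. A length of 12735 bases did, within 0.0001 of a read in both libraries, and it is the annotated sum without the 3 transcripts Vegfa-211, Vegfa-212 and Vegfa-213. The other length that gave whole reads, 25470 bases, is 2 times as long and exceeds the annotated 15996. The reads were then 6342 in DCA and 5750 in NC. Vegfb, a related ligand of VEGF receptor 1 (ENSMUSG00000024962, chromosome 19, 6982473 to 6987651, minus strand), had 10.2 FPKM in both libraries, from 1674 and 1757 reads, a ratio of 0.997 (0.932 to 1.07). Per kilobase, Vegfa stood at 1.42 of Vegfb in DCA and 1.23 in NC, or 1.16 times (1.07 to 1.25).

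The DNA just before the start sites of Vegfa and Vegfb is shown because these related ligands differed in their ratio, and that of Hgf because it was the other member with a higher value. The sequences are from RefSeq on GRCm38.p6, 250 bases up to the base before the start, on the gene's strand and 5′ to 3′, and they overlap no annotated exon. The regions are chr17:46032378-46032627 for Vegfa, chr19:6987652-6987901 for Vegfb and chr5:16553245-16553494 for Hgf. Capitals mark matches, on either strand, to the GC box GGGCGG, the hypoxia response core ACGTG, the AP-1 motif TGANTCA, the TATA box TATAAA and the CCAAT box CCAAT.
Vegfa: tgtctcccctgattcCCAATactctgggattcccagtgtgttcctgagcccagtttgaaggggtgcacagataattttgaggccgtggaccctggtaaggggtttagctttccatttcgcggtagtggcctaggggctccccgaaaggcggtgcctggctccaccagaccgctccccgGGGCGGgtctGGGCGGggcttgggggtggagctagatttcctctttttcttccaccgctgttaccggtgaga
Vegfb: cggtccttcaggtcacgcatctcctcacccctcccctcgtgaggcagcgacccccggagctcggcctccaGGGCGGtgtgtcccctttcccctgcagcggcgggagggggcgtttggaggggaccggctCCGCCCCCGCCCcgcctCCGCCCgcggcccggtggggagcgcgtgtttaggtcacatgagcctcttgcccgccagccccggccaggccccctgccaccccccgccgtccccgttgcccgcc
Hgf: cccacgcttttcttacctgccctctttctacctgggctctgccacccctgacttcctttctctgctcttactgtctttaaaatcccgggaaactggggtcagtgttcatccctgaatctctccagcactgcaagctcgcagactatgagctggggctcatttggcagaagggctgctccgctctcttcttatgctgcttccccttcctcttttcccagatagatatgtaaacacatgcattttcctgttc
Vegfa held 2 GC boxes, at -72 to -67 and -62 to -57 from the start, and a CCAAT match at -235 to -231. Vegfb held 4 GC boxes, at -180 to -175, -121 to -116, -115 to -110 and -104 to -99. The Hgf window shown held none of the 5 motifs, which says only that these letters are not in this stretch. Of 32851 RefSeq windows of this length, 32.7% held a GC box, 33.8% a CCAAT box, 16.6% the hypoxia core, 12.4% the TATA box and 6.75% the AP-1 motif. Whether any of these motifs bears on the ratios was not tested. A further window listed for Vegfa and for Hgf lies partly within exons, and the one listed for Igf1 lies wholly within annotated exons, so these are not shown. The further Vegfa window held a GC box, a hypoxia core and a CCAAT match. That of Hgf held none of the 5 motifs, and that of Igf1 held an AP-1 and a CCAAT match.

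Of the genes that receive VEGF, the co-receptors neuropilin 1 and 2 were expressed and the receptor tyrosine kinases were low. Nrp1 was at 16.4 FPKM in DCA against 15.8 in NC, for a ratio of 1.03 (1.01 to 1.06), and Nrp2 had 6.30 and 6.25, a ratio of 1.01 (0.985 to 1.03). Kdr, the main signalling receptor for VEGF-A, was at 1.03 FPKM in DCA against 1.31 in NC, counted from 767 and 1020 reads, for a ratio of 0.787 (0.716 to 0.865). Flt1, VEGF receptor 1, was counted with 53 reads in DCA against 63 in NC and did not pass the filter, with a ratio of 0.880 (0.599 to 1.29). Kdr thus lay below NC while Vegfa lay above it. The interval of Nrp1 no longer left out equality once each library was rescaled to 1e6. In the 14 genes of this axis, 4 passed the filter, with 1 interval above and 2 below equality, against 25.6% and 20.0% of all tested genes. Without the filter the axis gave 3 above and 4 below, while a minimum mean FPKM of 5 left 1 and 0. The shares over all tested genes do not extend to these other limits, so these counts have no background. The other lower tested gene was Angptl2, a secreted angiopoietin-like protein, with 3.92 FPKM in DCA against 4.32 in NC, for a ratio of 0.907 (0.857 to 0.961).

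Hgf, the ligand of MET (ENSMUSG00000028864, chromosome 5, 16553495 to 16620152, plus strand), was at 1.47 FPKM in DCA against 1.31 in NC, counted from 1337 and 1242 reads. Its ratio was 1.13 (1.04 to 1.22), with a difference in log2(FPKM + 1) of 0.10 at percentile 85.0. Of its exonic bases, 484 also lie in Gm43489, annotated on the same strand, so its reads are uncertain there. Met was at 0.765 FPKM in DCA against 0.748 in NC, below the filter, with a ratio of 1.02 (0.932 to 1.12). It was counted from 917 and 939 reads, and its FPKM is divided by the summed length of 7 transcripts. Per kilobase of the union of its exons it stood at 2.11 in DCA and 2.07 in NC, above Pdgfb, which passed the filter.

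HGF is secreted as an inactive chain that proteases cut and the HAI inhibitors protect. All 5 tested genes of this axis had intervals off equality, 2 above and 3 below, where 25.6% and 20.0% of all tested genes did. Plau, the urokinase, was at 38.8 FPKM in DCA against 48.6 in NC, for a ratio of 0.799 (0.777 to 0.823), and its receptor Plaur had 13.7 and 13.1, a ratio of 1.04 (1.003 to 1.08) that reached equality once the libraries were rescaled. St14, which encodes the protease matriptase, was at 1.59 FPKM in DCA against 1.79 in NC, for a ratio of 0.885 (0.815 to 0.962). The inhibitors went opposite ways. Spint1, for HAI-1, was at 1.86 FPKM in DCA against 2.87 in NC, counted from 803 and 1299 reads, for a ratio of 0.647 (0.592 to 0.707). Spint2, for HAI-2, was at 1.31 FPKM in DCA against 0.831 in NC, counted from 528 and 352 reads, for a ratio of 1.57 (1.37 to 1.80). With Plau, these were the tested genes of the ligand and partner lists that passed 1.2-fold in FPKM + 1, which Hgf itself did not.

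The PDGF chains were measured from fewer reads and none had an interval off equality. Pdgfa (ENSMUSG00000025856, chromosome 5, 138976014 to 138997370, minus strand) was at 2.17 FPKM in DCA against 2.28 in NC, counted from 947 and 1043 reads, for a ratio of 0.950 (0.869 to 1.04). Of its exonic bases, 813 also lie in 6330403L08Rik on the other strand. Pdgfb (ENSMUSG00000000489, chromosome 15, 79995874 to 80014977, minus strand) was at 0.967 FPKM in DCA against 1.04 in NC, counted from 336 and 379 reads, for a ratio of 0.928 (0.799 to 1.08), and passed the filter narrowly with a mean of 1.004. Pdgfc (ENSMUSG00000028019, chromosome 3, 81036416 to 81214040, plus strand) was at 0.0760 FPKM in DCA against 0.0573 in NC, counted from 38 and 30 reads, for a ratio of 1.33 (0.7998 to 2.22). It shares 147 exonic bases with Gm16000 on the other strand. For Pdgfc, a difference of the size seen for Igf1 or Vegfa was not detectable at this depth. Per kilobase, Pdgfa stood at 3.76 of Pdgfb in DCA and 3.67 in NC, or 1.02 times (0.860 to 1.22).

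Neither PDGF receptor gene passed the filter. Pdgfra had 0 reads in both libraries, where a count of 0 allows up to 3 reads in each (an upper limit alone, narrower than the 2-sided intervals used elsewhere), and its exons overlap 3 other annotated genes. Pdgfrb was counted with 185 reads in DCA against 107 in NC, at 0.302 and 0.167 FPKM, a ratio of 1.81 (1.42 to 2.32) below the filter. Furin, a protease that processes PDGF precursors, was the only tested gene of this axis, with 6.99 FPKM in DCA against 7.37 in NC, for a ratio of 0.949 (0.922 to 0.977). Pdgfa and Pdgfb thus had more reads than either receptor gene, and Pdgfc had fewer than Pdgfrb.

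Hbegf, a membrane-anchored ligand of the EGF receptor (ENSMUSG00000024486, chromosome 18, 36504927 to 36515805, minus strand), rested on 19 DCA reads and 8 NC reads, at 0.0588 and 0.0237 FPKM. Its ratio was 2.49, with an interval of 1.04 to 6.56 that only just leaves out equality, and it did not pass the filter. Egfr was also below it, with 70 and 84 reads and a ratio of 0.872 (0.626 to 1.21). The proteins that release HB-EGF from the membrane, or stand beside it there, were better expressed. Of the 6 tested genes of the EGF axis, 5 had intervals below equality and 1 above, where 20.0% and 25.6% of all tested genes did. Without the filter, all 17 genes of the axis gave 6 below and 5 above, with a median difference in log2(FPKM + 1) of -0.0022. A minimum mean FPKM of 5 left 5 below and 0 above, with a median of -0.074. The shares over all tested genes do not extend to these other limits. Cd9, a tetraspanin that associates with the HB-EGF precursor, was at 135.7 FPKM in DCA against 147.2 in NC, for a ratio of 0.922 (0.906 to 0.939), and shares exonic bases with Gm26728. The sheddase Adam9 was at 13.97 FPKM in DCA against 14.96 in NC, for a ratio of 0.934 (0.909 to 0.959). Rhbdf2, which matures ADAM17, was at 8.44 FPKM in DCA against 8.93 in NC, for a ratio of 0.944 (0.909 to 0.981). Adam10 and Adam17 are named after their values were seen, at 0.952 (0.932 to 0.973) and 0.951 (0.930 to 0.972). So are the genes below the filter with intervals off equality. Rhbdf1, the relative of Rhbdf2, rested on 144 DCA reads and 67 NC reads, for a ratio of 2.25 (1.67 to 3.05). The ligand gene Tgfa had 37 and 6 reads, a ratio of 6.45 (2.70 to 18.7). Nrg2 was at 1.42 (1.07 to 1.903), Nrg4 at 1.23 (1.01 to 1.501) and Egf at 0.640 (0.444 to 0.915). The interval of Nrg2 rests on reads rebuilt with a length of 7383 bases, above the annotated 5366. The other tested gene, Erbb3, an EGF-family receptor, was at 2.15 FPKM in DCA against 1.64 in NC, for a ratio of 1.31 (1.17 to 1.46).

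**Figure D2:**
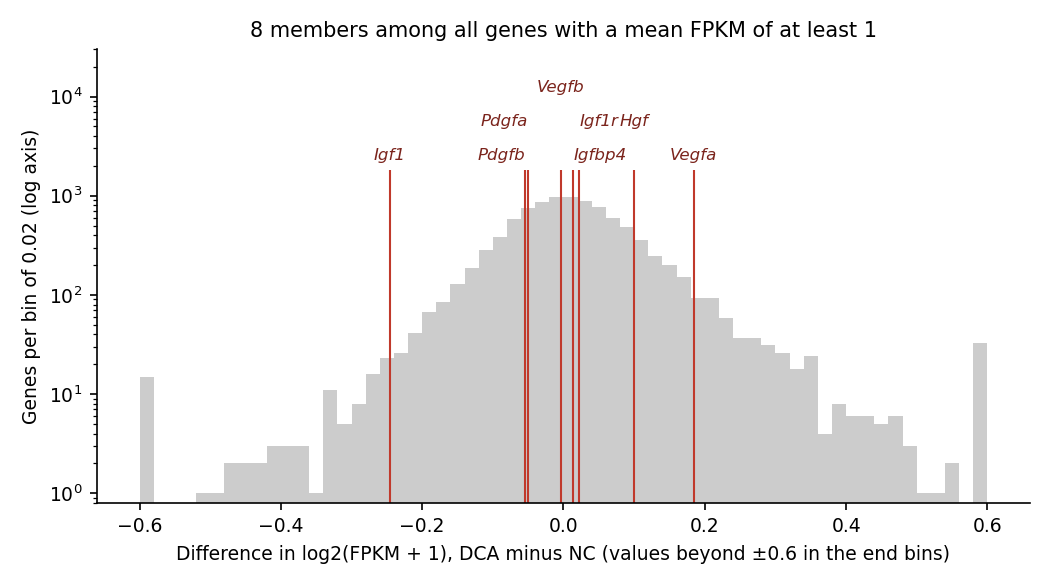
Difference in log2(FPKM + 1), DCA minus NC (x axis), for all 9656 tested genes as a histogram with a log count axis, and for the 8 tested members as red lines. Igf1 at -0.25 and Vegfa at 0.18 lie in the tails, and the other 6 lie between -0.05 and 0.10.

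Levels of different genes cannot be read from the deposited FPKM, because the gene length that turns it into whole reads is the sum over all annotated transcripts. The rebuilt reads were therefore divided by the length of the union of exons and by the read total of the library, which gives reads per kilobase and 1e6 reads. On that scale Vegfa was the highest member, at 26.2 (25.5 to 26.8) in DCA and 22.7 (22.1 to 23.3) in NC, with exact Poisson 95% intervals. Vegfb followed at 18.4 in DCA and 18.5 in NC, Igfbp4 at 13.3 and 13.2, Igf1 at 8.16 and 9.97, and Pdgfa at 5.37 and 5.65. Hgf and Igf1r came next. In DCA they were level, at 3.29 (3.11 to 3.47) and 3.29 (3.17 to 3.40), and in NC Hgf at 2.92 (2.76 to 3.09) was below Igf1r at 3.22 (3.11 to 3.33). Pdgfb stood at 1.43 in DCA and 1.54 in NC. Pdgfc at 0.132 and 0.0996 and Hbegf at 0.0695 and 0.0280 were last, and their intervals overlapped in DCA but not in NC. All other neighbours in this order were further apart than their counting intervals in both libraries. In the deposited FPKM, by contrast, Vegfb was the highest member in both libraries, and Vegfa was at place 2 in DCA and place 3 in NC. With the longest transcript as the length, Vegfa remained first in both and Hgf lay above Igf1r in NC, at 6.05 against 4.74.

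**Figure D3:**
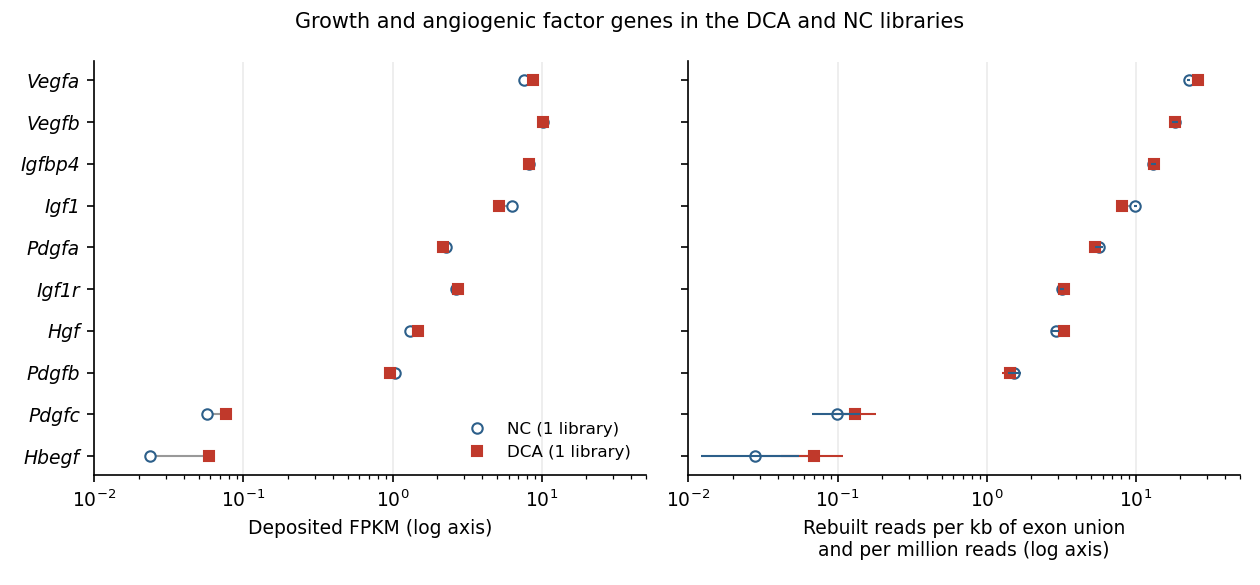
Level of the 10 genes in DCA (red squares) and NC (blue circles), as deposited FPKM on the left and as rebuilt reads per kilobase of exon union and per 1e6 reads on the right, both on log axes. Bars on the right are exact Poisson 95% intervals. Vegfa is highest on the right, at 26.2 and 22.7, while Vegfb is highest on the left, and Pdgfc and Hbegf lie far below the other 8.

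Beyond these pathways, 12 of 27 other growth, repair and angiogenic factor genes in the table passed the filter, with 7 intervals above and 4 below equality, where 25.6% and 20.0% of all tested genes did. Their median difference in log2(FPKM + 1) was 0.07. Without the filter the counts were 12 and 7, while a minimum mean FPKM of 5 left 3 and 4, with a median of -0.04. The shares over all tested genes do not extend to these other limits. Since the filter acts on the deposited FPKM, summing many transcripts can push a gene under it. Fibronectin (Fn1), with 17 transcripts, fell short at 0.690 in DCA and 0.519 in NC, although 2711 and 2134 reads were rebuilt. Its level per kilobase of exon union, 4.10 in DCA and 3.08 in NC, was above that of Hgf. Fn1 in DCA stood at 1.33 times its NC value, with counting limits at 1.26 and 1.41. This gene is named after its values were seen. Oncostatin M (Osm), a cytokine of the IL-6 family, was at 4.71 FPKM in DCA against 3.91 in NC, for a ratio of 1.21 (1.09 to 1.34). Thbs1, for the angiogenesis inhibitor thrombospondin 1, was at 140.8 FPKM in DCA against 122.0 in NC, for a ratio of 1.15 (1.14 to 1.17), and so stood higher beside Vegfa. Gdf3, of the TGF-beta superfamily, was at 2.79 FPKM in DCA against 2.33 in NC, for a ratio of 1.198 (1.04 to 1.39). On the lower side, Gpnmb, a glycoprotein of lipid-laden macrophages, was at 901 FPKM in DCA against 948 in NC, for a ratio of 0.950 (0.946 to 0.954). Tgfb1 was at 0.962 (0.940 to 0.984) and osteopontin (Spp1) at 0.963 (0.958 to 0.968).

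Markers of the cell types a marrow culture can hold were read beside these values. Over all tested genes, 25.6% of intervals lay above and 20.0% below equality, the background for each count of intervals here. Macrophage markers were abundant, as the label says, with Lyz2 at 9803 FPKM and Cd68 at 389 in DCA and none of the 12 at 0. Their median ratio was 0.954 with a range of 0.896 to 1.01, with 8 intervals below and 1 above equality. Their deposited FPKM summed to 10858 in DCA and 10763 in NC. All sums of markers here and below add deposited FPKM, in which a gene with many transcripts counts for less. Adgre1, with 5 transcripts, was at 61.6 FPKM in DCA but 153 per kilobase of exon union. The sums therefore compare the libraries and give no level of a cell type. Lyz2 makes up most of the macrophage sum as deposited, and the other 11 summed to 1055 FPKM in DCA and 1095 in NC. The ratio of Igf1, 0.818, was under that of each of the 12. Neutrophil markers, with S100a9 and S100a8 the highest in FPKM, were higher in 11 of 11 with a median of 1.18 and a range of 1.04 to 1.39, and summed to 4120 FPKM in DCA and 3476 in NC. The ratio of Vegfa, 1.15, was exceeded by 8 of these 11. B cell markers, of which Cd79a and Cd79b had the highest FPKM, were higher in 7 of 7 tested, with a median of 1.22 and sums of 181 and 145 FPKM. Eosinophil markers, with Prg2 and Ear2 highest in FPKM, had 5 of 6 intervals above equality, a median of 1.34 and sums of 120.6 and 83.5 FPKM. Prg2 alone held 97.0 FPKM of that sum in DCA and 65.9 in NC.

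Genes of the dendritic cell list had 4 of 6 intervals above equality, where 25.6% of all tested genes did. Their median was 1.24, with sums of 137 FPKM in DCA and 110.5 in NC. Ly6d and Ccr7 were highest in deposited FPKM, but Ly6d and Siglech per kilobase of exon union. Ly6d alone held 98.4 and 80.3 FPKM of the sums, so they report mainly 1 gene and are no measure of dendritic cells. Which cell type carried Ly6d was not tested. Xcr1, Clec9a and Zbtb46 did not pass the filter, and Cd209a was at 0.941 (0.872 to 1.02). Mast cell and basophil markers, with Cpa3 and Mcpt8 highest in FPKM, had 2 of 6 above, where 25.6% of all tested genes did. Their median was 1.06, with sums of 20.7 FPKM in DCA and 18.8 in NC. Of the megakaryocyte list, Pf4 was at 0.857 (0.813 to 0.902) and Ppbp at 0.955 (0.743 to 1.23), and 7 of 9 markers did not pass the filter. The sums of that list were 37.9 FPKM in DCA and 43.9 in NC, of which Pf4 alone held 33.9 and 39.6. Below the filter, Gp1ba was at 0.602 (0.445 to 0.809) and Treml1 at 1.53 (1.19 to 1.97), both named after their values were seen. Of the endothelial list, Kdr was at 0.787 and Pecam1 at 1.08 (1.02 to 1.14), with 4 of 6 below the filter and sums of 4.24 and 4.61 FPKM. Among those below the filter, only Cdh5 had a counting interval off equality, and it is named after its values were seen. Its 124 DCA reads against 192 NC reads put it at 0.676, with counting limits at 0.535 and 0.852. None of the 8 stromal genes passed the filter, Pdgfrb and Col1a1 being the highest in FPKM. Their list had sums of 0.465 and 0.310 FPKM, with Dcn and Pdgfra at 0 in both libraries. The part of these other cells in the values of Igf1, Vegfa, Hgf and Kdr was not tested.

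**Figure D4:**
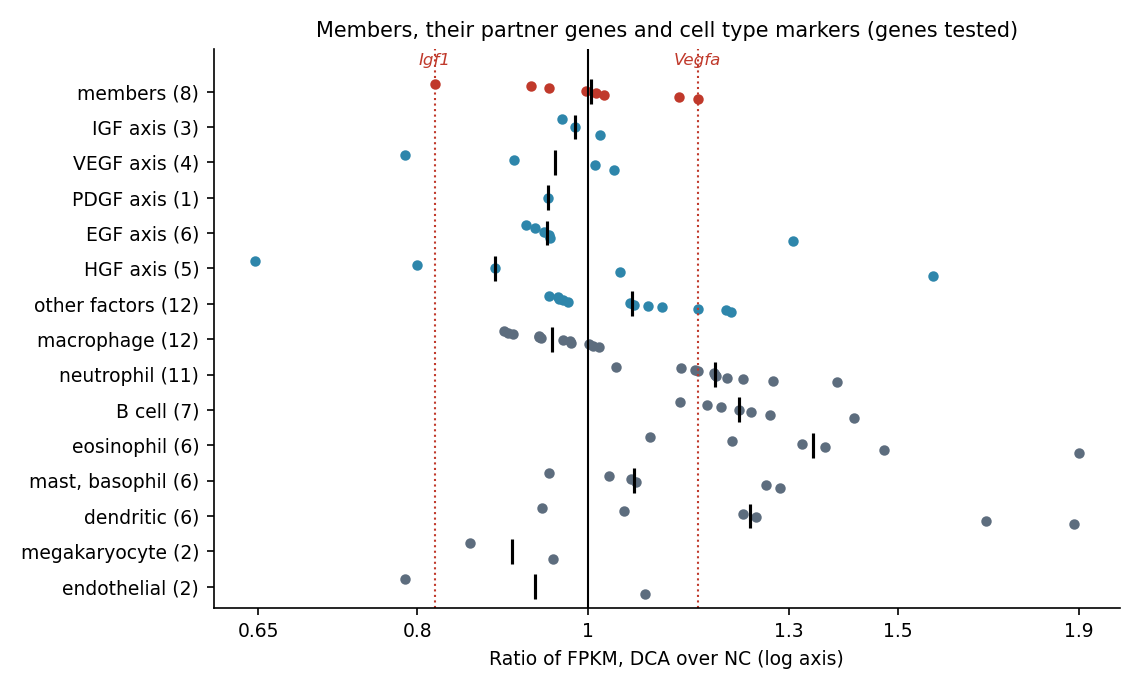
Ratio of FPKM in DCA over NC (log axis) for each tested gene of the members (red), the partner and other factor lists (blue) and the cell type markers (grey), with the number tested in brackets, a black bar at each median and dotted lines at Igf1 and Vegfa. Neutrophil markers lie above 1 with a median of 1.18, and macrophage markers have a median of 0.954 and none is as low as Igf1.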

How the data were processed

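RNA-seq libraries of DCA-treated (1) and NC (1) macrophages were compared. The authors deposited FPKM for 15576 genes. The submitters' processing notes name DESeq2 3.0, HTSeq 0.6.0, STAR 2.5.0c, bedtools 2.17.0 and Picard 1.126, without roles, and the build GRCm38. Gene length, strand setting and filters were not given in the sources used here. GENCODE vM21 supplied coordinates and lengths for 15548 genes. With summed transcript lengths, the FPKM of 96.4% of 11794 genes under 5000 reads gave whole numbers (tolerance 0.05) for DCA and NC alike, at totals of 56.6 M (DCA) and 59.2 M (NC), with M for 1e6. For listed genes without whole reads, the shortest length giving whole reads within 0.0001 was used (for Vegfa, the shorter of 2). For Egfl7, Grn, Nrg1 and Nrg2 that length exceeded the annotated one and no set of left-out transcripts explained it. Their rebuilt reads and intervals rest on that length.

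Differences are in log2(FPKM + 1), with a filter of mean FPKM at least 1, in Python 3.11.15 with scipy 1.17.1. Intervals cover counting error only, and any PCR copies of a molecule left in as separate reads would make the true error larger. Whether such copies were removed was not given in the sources used here. The interval calculation and read recovery were tested on simulated data. The simulation held counting error alone and rebuilt reads with the same lengths that made its FPKM. It therefore cannot check the inferred lengths or any variation beyond counting. Named genes are the 10 members, up to 3 per direction and partner list with intervals off equality, the members' receptors and the 2 markers of highest mean FPKM per cell type. Members, lists and rules were chosen with earlier results of these data known. Alternatives covered the pseudocount, filter, scaling, overlapping exons and length.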

Additional observations from a re-analysis of the deposited data

How the results depend on the processing

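No paired analysis was possible because each group holds 1 library. Each member kept the direction of its difference in log2 under every pseudocount, filter and scaling that gave it a value. The median over the tested members, 0.0052, turned to -0.0073 when each library was rescaled to 1e6 and to -0.0011 when rescaled by the median ratio. With pseudocount 5 the difference of Igf1 shrank to -0.154 and that of Vegfa to 0.129, since a larger pseudocount shrinks every difference. The count of members at least 1.2-fold lower was 1 in place of 0, Igf1 in each case, with pseudocount 0.1, with no pseudocount and after rescaling each library to 1e6. The count of members with an interval above equality was 1 in place of 2 with a mean FPKM of at least 5, and also without genes that have overlapping exons, because both leave out Hgf, and 3 with no filter, which adds Hbegf. The shares given over all tested genes hold for the main filter alone. The scalings moved every ratio by 0.0069 (median ratio) or 0.013 (rescaling to 1e6) in log2. In log2(FPKM + 1) the moves were unequal on rescaling to 1e6, which also changes the weight of the pseudocount: Igf1 went to -0.29, Vegfa to 0.19, Hbegf from 0.05 to 0.26 and Pdgfc from 0.03 to 0.12. Depth limits Hbegf and Pdgfc, with under 40 reads in each library. Only replicate libraries could show whether the differences of Igf1, Vegfa and Hgf exceed the spread between cultures.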
